A study of Mus musculus with 18 samples.

Results

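Leukemic cells from the spleen were compared with myelodysplastic progenitors from the bone marrow by RNA-seq in the mouse. The genes described are those that passed a filter on low counts in the deposited gene count table and do not lie on X or Y, 15741 of the 16233 genes tested. The leukemic group, called AML here, holds 3 libraries of c-Kit+ cells sorted from the spleens of NHD13 transgenic mice in which Setd2 had been deleted with Mx1-Cre and which had reached the leukemia stage. The other group, called NHD13 here, holds 3 libraries of hematopoietic stem and progenitor cells sorted from the bone marrow of NHD13 mice with floxed and undeleted Setd2 (Setd2 flox/flox). All mice were on the C57BL/6 strain, and every animal of both groups carried the NHD13 transgene. The groups thus differ at once in Setd2 genotype, disease stage, organ and sorting gate, and these cannot be told apart. The labels used here give no age, nor do they tie a library to an animal. If libraries share an animal, the p-values below reflect the spread of library making and no more. Progenitors of NHD13 mice with deleted Setd2 before leukemia (KO, 3 libraries) and of wild-type mice (WT, 3 libraries), both from marrow, entered the fit and are cited for their levels only.

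NHD13 is a fusion of the nuclear pore gene NUP98 with the homeobox gene HOXD13, found in human myeloid disease. Mice that express it in blood cells develop a myelodysplastic syndrome, in which blood cell formation fails, and some progress to acute leukemia. Setd2 is the enzyme that adds the third methyl group to lysine 36 of histone H3 (H3K36me3) along transcribed genes, and Mx1-Cre is a recombinase driven by an interferon-inducible promoter that is active in blood-forming cells.

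Library totals were 18673704 to 20577958 counts in AML and 22243002 to 24766705 in NHD13. The AML libraries stood apart from the 9 others in their dependence on gene length: their level rose by 0.258 to 0.298 log2 units per doubling of length relative to the average of all 12 libraries, while the slopes of the other 9 lay between -0.128 and -0.042. The share of counts in the top 10 genes was 4.68% to 4.78% in AML and 14.1% to 15.8% in NHD13. The AML libraries also resembled each other more, with a median coefficient of variation of 3.51% over expressed genes against 7% in NHD13. No pair agreed within sampling noise: chi-square divided by its degrees of freedom was 1.97 to 2.63 between AML libraries and 8.38 to 24.9 between NHD13 libraries. All 3 AML libraries had the same leading immunoglobulin V segments, Igkv4-61 at 58.9% to 61.3% of kappa V counts and Ighv1-26 at 60% to 61.2% of heavy V counts. In NHD13 Ighv1-41 led the heavy V counts in all 3 libraries, at 28.8% to 31.3%, while the kappa leader differed: Igkv10-96 at 25.3% in replicate 1, and Igkv3-10 at 61.9% and 60.6% in replicates 2 and 3.

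Setd2 itself does not check the labels. Its count was 34.4, 34.6 and 31.5 CPM (counts scaled to a common library total with TMM factors) in the NHD13 libraries and 183, 187 and 179 CPM in AML, the group whose Setd2 is labelled as deleted. The groups did not overlap, the log2 fold change of AML minus NHD13 was 2.45 (SE 0.08), and edgeR's adjusted p was 1.92e-15. With an offset that removes each library's gene-length trend it was 1.38. The KO progenitors stood at 32.4 ± 2.91 CPM (SD, n = 3). Counts cover the whole gene (ENSMUSG00000044791, chr9:110532500-110618633, GRCm38.p6), so they do not show whether an exon is missing. Kit, the receptor used to sort the AML cells, was 75.6, 75.7 and 69.4 CPM in NHD13 and 217, 216 and 211 CPM in AML. It rose by 1.55 on the log2 scale (SE 0.06, edgeR adjusted p = 1.15e-14), and by 0.59 with length offsets.

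Most genes differed. Of the 15741 genes 82.5% passed an adjusted p below 0.05, 43.4% higher in AML (6826 genes) and 39.1% lower (6161 genes). The higher genes made up 52.6% of the calls, but 67.3% when libraries were scaled by their totals and 67.6% and 67.0% in the FPKM values with pseudocounts of 1 and 0.1; those scalings move the median log2 fold change of all genes from 0.09 to 0.69, 0.29 and 0.59. The share fell below that of the lower genes in other settings, at 49.8% with upper-quartile factors and 48.6% with gene-length offsets. At 2-fold or more, 32.7% were higher and 26.9% lower, and at 32-fold or more 2.74% (431 genes) were higher and 1.62% (255 genes) lower. With such shares a list in which 4 in 10 genes are called in 1 direction is at the background, so each list below is read beside these values and beside the median log2 fold change of 0.09 for all genes.

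The fold changes followed gene length. The median log2 fold change was -0.97 in the shortest of 5 equal groups of genes (median 905.5 bases) and 1.04 in the longest (median 8893 bases), and it was -0.54, 0.01 and 0.47 in the groups between. In the shortest group 25.8% of genes were higher and 52.4% lower, and in the longest 67.5% were higher and 19.9% lower. Across genes, which are not independent replicates, Spearman's rho of fold change with length was 0.31. Length offsets brought the medians of the 5 groups to between -0.17 and 0.04 and rho to 0.01. With the offsets 6181 genes were higher and 6538 lower. Values under these offsets are given below for many of the lists and for some of the genes, and the remaining values carry no correction for length. What produced the trend was not tested.

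**Figure D1:**
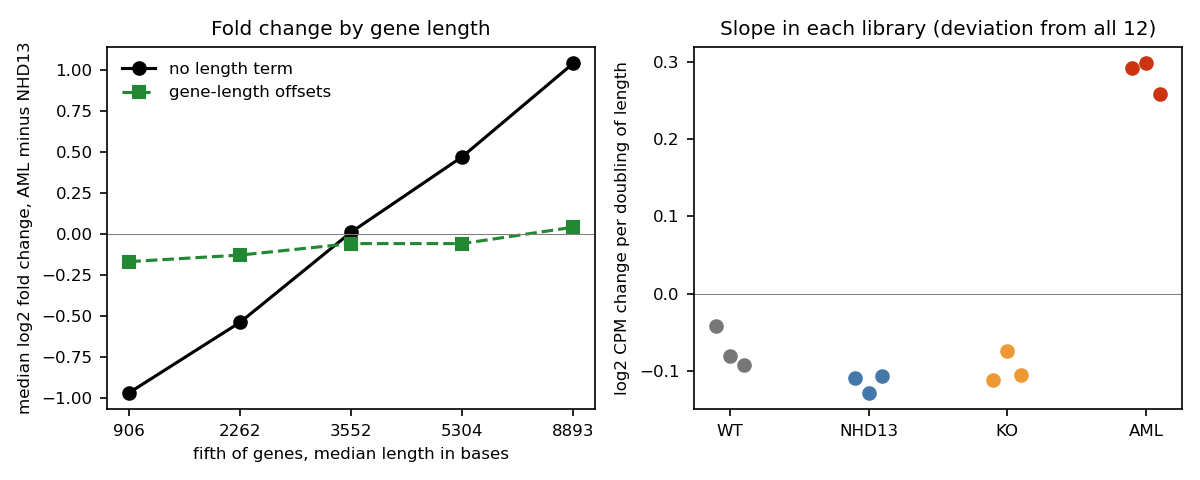
Left, the median log2 fold change of AML minus NHD13 in 5 equal groups of genes ordered by length (x axis, median length in bases), without and with gene-length offsets. Right, the slope of each library's log2 CPM on log2 length, as a deviation from the average of all 12 libraries, 3 points per group. The line without offsets climbs from -0.97 to 1.04, and the 3 AML libraries lie between 0.258 and 0.298 while all others lie below 0.

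The 12 genes that rose most included Clec9a, Dnase1l3, Mycl, Zfp366 and Anpep, which are known from dendritic cells and macrophages. Clec9a, a receptor for dead cells on conventional dendritic cells, had no count in any NHD13 library and 24.0, 23.8 and 21.3 CPM in AML, which is at least 443-fold higher when NHD13 is set to a floor of 3 counts in the group. Dnase1l3, a secreted nuclease of dendritic cells and macrophages, went from 0 to 24.2 ± 0.514 CPM, at least 466-fold. Mycl, a Myc family factor used by dendritic cells, went from 0 to 17.5 ± 1.35 CPM, at least 337-fold, and Zfp366, a zinc-finger factor also known as DC-SCRIPT, from 0 to 16.6 ± 1.2 CPM, at least 320-fold. Anpep, the aminopeptidase CD13, went from 0 to 18.5 ± 1.18 CPM, at least 355-fold. None of these 5 genes had more than 0.2 CPM on average in KO progenitors. Their edgeR adjusted p values lay between 1.3e-14 and 8.99e-14, but a value below 0.05 was a condition for being among the 12.

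Zic1 and Zic4, zinc-finger factors of the developing nervous system that lie next to each other on chromosome 9 with overlapping spans, were off in NHD13 and on in AML. Zic1 had no count in NHD13, KO or WT libraries and 36.5, 40.2 and 35.3 CPM in AML, at least 719-fold higher. Zic4 had 0 in NHD13 and 13.1, 13.7 and 15.7 CPM in AML, at least 274-fold higher. Reads in the overlap cannot be given to 1 of the pair unless the counting used strand, which the sources used here do not state. Zfhx4, a large homeodomain factor, had 1 count over the NHD13 libraries and 28.9 ± 1.09 CPM in AML, a ratio of 1670 with a counting interval of 300 to 66100. Tbc1d9 had 2 counts in NHD13 and 36.8 ± 1.12 CPM in AML, a ratio of 1060 with an interval of 294 to 8770. Slc16a11, a monocarboxylate transporter family member, had 0 in NHD13 and 15.5 ± 0.993 CPM in AML, at least 299-fold. It was not off in the other marrow groups, at 3.17 ± 0.523 CPM in KO and 4.75 ± 0.449 CPM in WT progenitors.

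The class II antigen presentation system followed the same direction. Of 22 tested genes of dendritic cells and MHC class II, 18 were higher and 4 lower, against 43.4% and 39.1% of all genes, with a median log2 fold change of 2.83, and 2.80 with length offsets. Ciita, the master activator of class II genes, was 0.108, 0 and 0.0989 CPM in NHD13 and 37.6, 36.4 and 35.3 CPM in AML, a log2 change of 8.93 (SE 0.32). H2-Eb1, a class II beta chain, was 2.21, 2.99 and 2.52 CPM in NHD13 and 373, 368 and 386 CPM in AML, a log2 change of 7.18 (SE 0.11). H2-Aa, an alpha chain, was 4.46 ± 1.05 CPM in NHD13 and 251.6 ± 4.78 CPM in AML. KO progenitors had 2.37 CPM of H2-Eb1 and 0.266 CPM of Ciita, near the NHD13 levels. Itgax, which encodes CD11c, was 0.19 ± 0.0248 CPM in NHD13 and 31.0 ± 2.66 CPM in AML, a log2 change of 7.31 (SE 0.20). Of the factors that specify dendritic cells, Irf8 was 46.8, 39.4 and 47.2 CPM in NHD13 and 288, 304 and 299 CPM in AML, a log2 change of 2.74 (SE 0.08) and 1.96 with length offsets, and Batf3, named after its values were seen, rose by 7.20. Xcr1, a chemokine receptor of conventional type dendritic cells, rose by 2.92. Tcf4 and Ccr9, also in the list, rose by 0.72 and 1.76. The plasmacytoid marker Siglech went the other way, from 0.158 ± 0.0944 CPM in NHD13 to 0.0142 ± 0.0246 CPM in AML. That fall rested on 9 counts over the NHD13 libraries and 1 over the AML libraries (log2 change -3.06, SE 1.14). The 3 other lower genes were the transcription factor Zbtb46 (-0.47), Bst2 (-0.56) and Cst3 (-0.17). Of these Bst2 and Cst3 turn positive with library totals, FPKM values or length offsets. Cst3 does not pass without AML replicate 1 or 3 or NHD13 replicate 2 or 3. In bulk RNA, more cells of a type and more RNA of its genes per cell cannot be told apart.

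**Figure D2:**
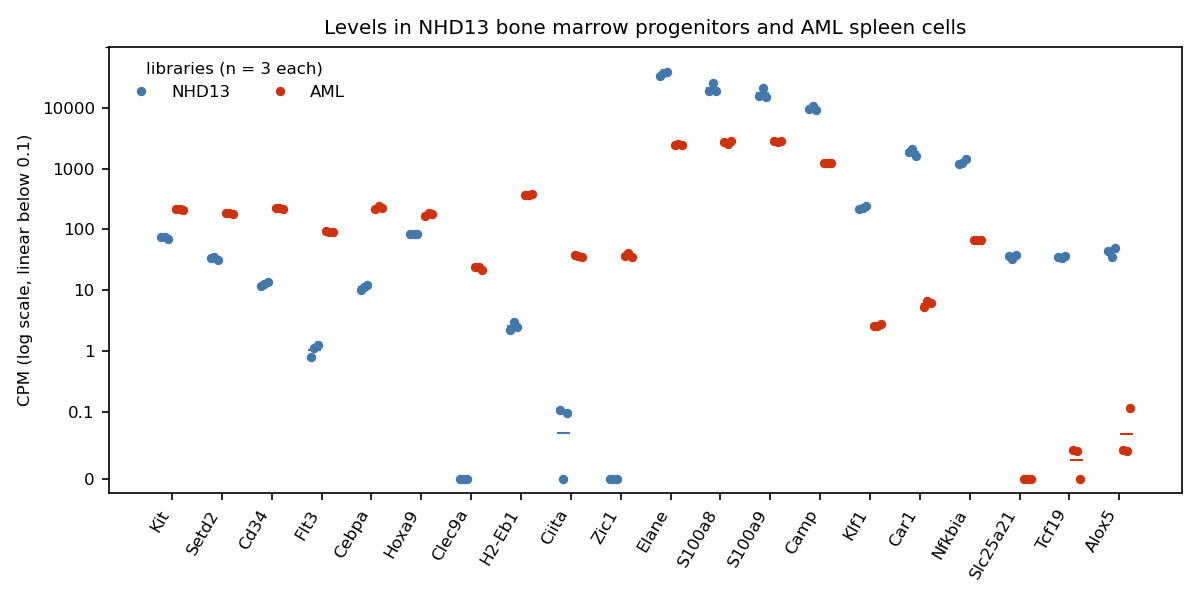
CPM of 20 genes in the 3 NHD13 libraries (blue) and 3 AML libraries (red), points for libraries and bars for group means, on a log axis that is linear below 0.1 CPM. The 2 groups do not overlap for any gene shown, but this was a condition for naming the genes that rose or fell most. Clec9a and Zic1 lie at 0 in NHD13, and Slc25a21 lies at 0 in AML.

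Stem and progenitor genes were higher in AML. Of 29 tested, 24 rose and 3 fell, with a median log2 fold change of 2.42, and 2.14 with length offsets. Flt3, a cytokine receptor of multipotent and lymphoid-primed progenitors, was 0.81, 1.1 and 1.24 CPM in NHD13 and 93.1, 90.4 and 90.0 CPM in AML, with 34.8 CPM in KO progenitors. Cd34, a surface sialomucin of progenitors, was 11.7, 12.6 and 13.6 CPM in NHD13 and 226, 226 and 220.0 CPM in AML, with 147 CPM in KO progenitors. Their log2 fold changes were 6.43 (SE 0.12) and 4.14 (SE 0.07). The NHD13 libraries, though sorted as progenitors, thus held little Flt3 and Cd34 RNA. Mycn, a Myc family proto-oncogene, was 0.702, 0.839 and 0.841 CPM in NHD13 and 65.2, 68.1 and 68.2 CPM in AML, a log2 change of 6.39 (SE 0.19). Msi2, an RNA-binding protein of stem cells, rose by 4.0 (SE 0.12) and still by 2.96 with offsets. Meis1, a homeobox cofactor, rose by 2.55 (1.5 with offsets), to 12.4 CPM in AML, against 22.3 CPM in KO progenitors. The 3 genes that fell were Prdm16, Cd48 and Bex6. Of these Cd48 no longer passed with length offsets (-0.12, edgeR adjusted p = 0.141), and Bex6 turned to 0.03.

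In the Hoxa and Hoxb clusters, which pattern the body axis and keep progenitors immature, 12 of 21 genes were tested, and 8 of them were higher and 3 lower. Hoxa9 was 83.9, 84.9 and 84.6 CPM in NHD13 and 168, 183 and 179 CPM in AML, a log2 change of 1.06 (SE 0.06, edgeR adjusted p = 5.14e-12) and 0.50 with length offsets. Hoxa7, named after its values were seen, had -0.05 and did not pass (edgeR adjusted p = 0.519). Other Hoxa genes rose by more from lower levels: Hoxa5 from 5.93 ± 0.697 to 38.3 ± 1.31 CPM and Hoxa3 from 0.926 ± 0.277 to 21.2 ± 1.09 CPM. Hoxa10 had a log2 fold change of -0.46 that turned to 0.14, 0.1 and 0.13 with library totals and FPKM values. Hoxb6 and Hoxb7, named after their values were seen, were the other 2 that fell. In the Hoxc cluster 5 genes were tested and 3 rose, among them Hoxc4, by 2.63 (SE 0.16), and Hoxc6, by 1.74 (SE 0.18). Of 8 tested Meis and Pbx cofactors, which bind DNA with Hox proteins, 5 rose and none of the other 3 passed. Pbx2 rose most, from 5.83 ± 0.647 to 94.1 ± 3.14 CPM (log2 change 4.01, SE 0.14).

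Among 18 transcription factors of myeloid commitment 12 rose and 3 fell. Cebpa, the factor that starts the granulocyte and monocyte lineage, was 10.2, 11.4 and 12.3 CPM in NHD13 and 221, 243.5 and 221 CPM in AML, a log2 change of 4.34 (SE 0.09). Its relatives went the other way: Cebpb fell from 121.3 ± 19.3 to 26.3 ± 2.03 CPM (log2 change -2.21, SE 0.11) and Cebpd from 201 ± 13 to 48.3 ± 2.64 CPM (-2.06, SE 0.07). Cebpe, the factor of the secondary granule stage, was -0.03 and did not pass. Klf4, a factor of monocytes, rose from 1.64 ± 0.43 to 37.2 ± 1.65 CPM (log2 change 4.51, SE 0.15), and Ikzf1, a lymphoid and progenitor factor, by 1.96 (SE 0.08). The third gene to fall was Spi1, by 0.49 on the log2 scale.

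Granule genes of neutrophils were lower in AML, with exceptions. Of 12 primary granule genes, made at the promyelocyte stage, 11 fell and 1 rose, with a median log2 fold change of -2.75, and -2.23 with length offsets. Elane, neutrophil elastase, was 33250, 36750 and 38860 CPM in NHD13 and 2427, 2546 and 2462 CPM in AML, a log2 change of -3.87 (SE 0.09). Gstm1, Ms4a3 and Srgn, the proteoglycan that packs granule proteases, fell by 4.03, 3.71 and 3.48 on the log2 scale. The exception was Hk3, a hexokinase, which rose by 0.37 (SE 0.12, edgeR adjusted p = 0.0111). The summed level of the 12 genes was 99880 to 110600 CPM in NHD13, 64300 to 67680 CPM in KO progenitors and 13820 to 14260 CPM in AML.

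Of 18 secondary granule genes 13 fell and 4 rose (median log2 fold change -1.77, and -1.12 with offsets). Camp, the cathelicidin peptide, was 9517, 10740 and 9302 CPM in NHD13 and 1248, 1230 and 1215 CPM in AML. Ngp fell from 16840 ± 2590 to 3574 ± 57 CPM. In contrast Olfm4, a glycoprotein of a subset of neutrophils, was 6.97, 7.29 and 4.1 CPM in NHD13 and 237, 234 and 239 CPM in AML, a log2 change of 5.28 (SE 0.14), and Ltf, lactoferrin, was 1638 ± 25.8 CPM against 2256 ± 22.5 CPM, a log2 change of 0.46. Camp, Ngp, Ltf and Olfm4 were all higher in AML than in KO progenitors, in which Camp stood at 352, Ngp at 464, Ltf at 84.7 and Olfm4 at 0.991 CPM. That difference was not tested here.

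S100a8 and S100a9, whose proteins pair as calprotectin, were lower in AML than in NHD13. S100a8 was 18850, 25710 and 18950 CPM in NHD13 and 2738, 2566 and 2819 CPM in AML, a log2 change of -2.97 (SE 0.17, edgeR adjusted p = 7.25e-09) and -2.04 with length offsets. S100a9 was 15740, 21230 and 15060 CPM in NHD13 and 2876, 2787 and 2834 CPM in AML, a log2 change of -2.61 (SE 0.17) and -1.64 with offsets. KO progenitors had 2072 ± 237 CPM of S100a8 and 1256 ± 82.2 CPM of S100a9. Among 21 late neutrophil genes the count was mixed, 9 higher and 11 lower, with a median of -0.16 that turned to 0.44 with library totals. Mmp9, a gelatinase, rose from 71.1 ± 9.63 to 240.9 ± 1.76 CPM, and Stfa2l1, a stefin of a family whose members share reads, rose from 20.4 ± 2.99 to 266.5 ± 5.03 CPM. Wfdc21 fell from 662 ± 58.6 to 56.3 ± 0.58 CPM. Of 21 tested calprotectin receptors and members of the Toll-like receptor 4 pathway, 11 were higher and 9 lower, and 6 and 12 with length offsets. Nfkbia, the inhibitor of NF-kB, was 1176, 1255 and 1424 CPM in NHD13 and 67.5, 66.2 and 65.96 CPM in AML, a log2 change of -4.27 (SE 0.09). Nfkb1 itself changed by 0.74, but by -0.4 with length offsets.

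Erythroid genes were lower in AML. Of 29 tested, 24 fell and 4 rose, with a median log2 fold change of -2.89, and -2.91 with length offsets. Car1, a carbonic anhydrase of red cell precursors, was 1878, 2089 and 1595 CPM in NHD13 and 5.21, 6.69 and 6.12 CPM in AML, 308-fold lower (log2 change -8.27, SE 0.12). Klf1, the master factor of the lineage, was 213, 225 and 246 CPM in NHD13 and 2.54, 2.56 and 2.73 CPM in AML (log2 change -6.44, SE 0.11). Epor, the erythropoietin receptor, fell from 46.6 ± 6.93 to 4.27 ± 0.427 CPM. KO progenitors held 1951 CPM of Car1, 213 of Klf1 and 46.4 of Epor. The 4 genes that rose were Hbb-bt, Epb41, Slc4a1 and Tal1. Hbb-bt, an adult beta-globin whose reads may be shared with Hbb-bs, rose by 2.21 (SE 0.12) while Hbb-bs fell by 2.80. Epb41 rose by 1.47 and by 0.17 with length offsets. The summed level of the list was 5437 to 6300 CPM in NHD13 and 498.6 to 508.6 CPM in AML.

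Of 19 genes of heme synthesis and iron 15 fell and 4 rose. Blvrb, biliverdin reductase B, fell from 378 ± 30.2 to 11.2 ± 0.629 CPM (log2 change -5.08, SE 0.08), the synthesis enzyme Alad fell by 3.91 on the log2 scale, and Fth1, the ferritin heavy chain, fell from 3599 ± 123 to 349.6 ± 8.74 CPM. Ireb2, an iron-regulatory RNA-binding protein, and Slc25a37, the mitochondrial iron importer mitoferrin, both rose by 2.77, and by 1.78 and 2.12 with offsets. In the megakaryocyte and platelet list, 8 of 18 genes rose and 7 fell. Selp, P-selectin, was 1.62, 1.26 and 1.38 CPM in NHD13 and 53.4, 48.9 and 47.8 CPM in AML, while Pf4, platelet factor 4, fell from 28.1 ± 0.846 to 2.74 ± 0.231 CPM against 349.6 CPM in KO progenitors. Genes of mast cells, basophils and eosinophils were mostly lower, 14 of 18 against 4 higher (median -2.21), or 12 and 4 with length offsets (median -1.64). The higher ones were Il6ra (log2 change 3.90), Ccr3 (2.13), Il5ra (1.71) and Cd200r3 (1.53). Epx, eosinophil peroxidase, fell from 47.5 ± 5.05 to 0.268 ± 0.13 CPM, and Cpa3, a mast cell carboxypeptidase, from 45.7 ± 5.48 to 5.27 ± 0.77 CPM.

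**Figure D3:**
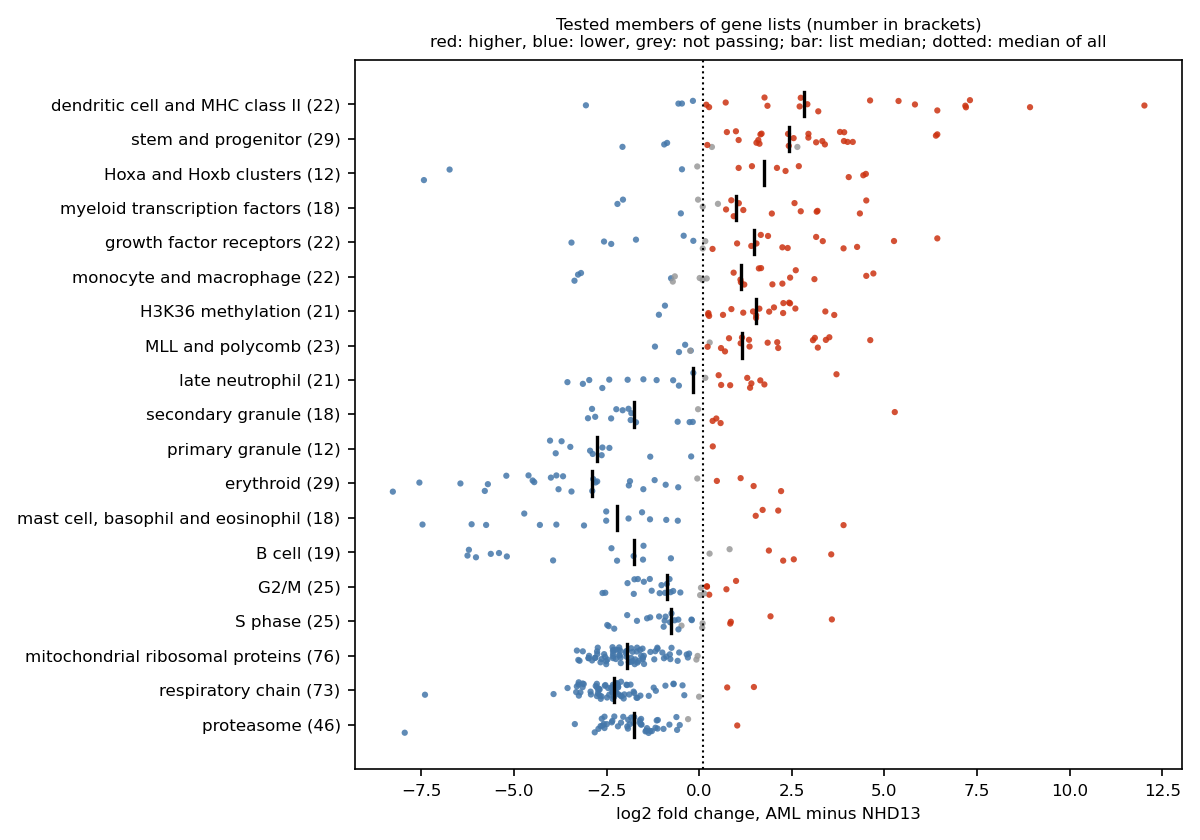
Log2 fold change of AML minus NHD13 (x axis) for each tested member of 19 gene lists, with the number of members in brackets. Red points are higher, blue points lower and grey points not passing at an adjusted p of 0.05; the black bar is the list's median and the dotted line the median of all genes, 0.09. The dendritic cell and stem cell lists lie to the right, and the granule, erythroid and mitochondrial lists to the left.

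Monocyte and macrophage genes were divided. Of 22 tested, 13 rose and 4 fell, with a median of 1.12. Mpeg1, perforin-2 of macrophages, rose from 10.4 ± 2.68 to 271.6 ± 2.36 CPM, and Csf1r and Ccr2, receptors of monocytes, rose from 14.0 ± 2.24 to 66.6 ± 3.08 and from 11.5 ± 0.91 to 62.9 ± 1.73 CPM. Ly6c2, a monocyte surface antigen, fell from 5985 ± 910 to 621 ± 19 CPM, and Cd14 from 44.4 ± 5.09 to 4.87 ± 0.272 CPM. The spleen also holds other cells whose RNA could enter the sort. Of 12 splenic macrophage genes 9 rose and 2 fell, and their summed level was 113 to 123 CPM in NHD13 and 91.5 to 95.2 CPM in AML. Most of the NHD13 sum came from the 2 genes that fell, the iron exporter Slc40a1, from 63.8 to 24.3 CPM, and the adhesion molecule Vcam1, from 37.2 to 14.6 CPM. Among the defining genes, C1qa rose from 1.18 ± 0.209 to 6.02 ± 0.331 CPM and Cd163 from 2.24 ± 0.341 to 6.05 ± 0.492 CPM, while Spic was 0.403 ± 0.179 CPM in NHD13 and 0.668 ± 0.105 CPM in AML and did not pass. Of 12 genes of stromal and endothelial cells 6 were higher and 1 lower. The higher ones included Pdgfrb, a growth factor receptor of pericytes (log2 change 4.60), and Pecam1, an endothelial adhesion molecule (2.58). Marrow progenitors also held both: Pdgfrb was at 2.46 CPM in NHD13, 20.1 in KO and 18.4 in WT. Pecam1 was at 16.9 CPM in NHD13, 37.1 in KO and 37.8 in WT. The summed level of the 12 genes was 182.5 to 210.4 CPM in NHD13 and 591 to 622 CPM in AML. Vim, a filament protein that blood cells also express, made up most of both sums, at 172 ± 12.8 and 436 ± 13.6 CPM, and Col1a1 rose from 0.174 ± 0.0823 to 1.22 ± 0.0653 CPM. The share of these cells in the results was not tested.

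B cell genes were mostly lower, 13 of 19 against 4 higher (median -1.77). The lowest log2 fold change in the list was that of Igll1, an early B cell gene. Igll1, part of the surrogate light chain, was 11.5, 10.7 and 13.8 CPM in NHD13 and 0.216, 0.17 and 0.078 CPM in AML (log2 change -6.25, SE 0.28). Ighm, the mu heavy chain, was opposite, with 211, 242 and 249 CPM in NHD13 and 1119, 1135 and 1121 CPM in AML (log2 change 2.27, SE 0.09). Igha, the alpha heavy chain, fell from 70.8 ± 13.3 to 0.0544 ± 0.0472 CPM. The kappa segments Igkv4-61 and Igkv1-110 had 2 and 1 counts over the NHD13 libraries and 161 ± 3.69 and 89.1 ± 3.42 CPM in AML. Igkv3-10 and Ighv1-54 had 26.8 ± 15.1 and 11.6 ± 2.05 CPM in NHD13 and no count in AML, at least 652-fold and 280-fold lower. V segments share sequence, so a read's assignment to 1 segment is uncertain. T and NK cell genes were mixed, 5 higher and 8 lower of 17. Ncr1 was at 0 in all 3 AML libraries, but had only 3 counts over the NHD13 libraries and did not pass. Among the 5 higher genes, Cd4 rose from 0.278 ± 0.0849 to 1.11 ± 0.232 CPM and Cd8a from 0.054 ± 0.0935 to 1.88 ± 0.333 CPM. The 8 lower genes included Trac (log2 change -4.93), Trbc2 (-2.99), Trbc1 (-1.30) and Cd3d (-1.27).

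Signalling genes showed no single direction across lists. Of 22 growth factor receptors 14 rose and 6 fell. Il6st, the shared gp130 chain of the interleukin 6 family, rose by 5.26 (SE 0.16, and 4.17 with offsets), its partner Il6ra by 3.90 (SE 0.13), and Csf2rb2, a beta chain of the interleukin 3 receptor, by 4.26 (SE 0.16), while Ifngr1 fell by 1.71. Of 19 inflammatory cytokines and chemokines 13 fell and 3 rose (median -1.55). Ccl3, a chemokine, was 113, 124 and 109.6 CPM in NHD13 and 4.57, 4.47 and 3.86 CPM in AML. Cxcl10, an interferon-induced chemokine, was 157, 168.5 and 150.7 CPM in NHD13 and 0.302, 0.341 and 0.624 CPM in AML, 366-fold lower (log2 change -8.52, SE 0.15). The wider set of 32 interferon response genes, Cxcl10 among them, was mixed: 17 rose (53.1%) and 12 fell (37.5%), against 43.4% and 39.1% of all genes. With length offsets 14 rose and 9 fell. Oas3 and Oas2, sensors of double-stranded RNA, were higher by 3.47 and 2.34, while Isg20, Oas1a and Oasl1 changed by -2.34, -1.17 and -1.17. Of 24 immediate early genes 9 rose and 12 fell, with a median of -0.21 that turns positive with library totals, FPKM values and length offsets. Fosb, an AP-1 subunit, was 5.94, 8.28 and 6.82 CPM in NHD13 and 560.5, 570 and 527 CPM in AML (log2 change 6.30, SE 0.16). Pim1, a kinase downstream of cytokine receptors, rose from 15.8 ± 2.91 to 518 ± 20.6 CPM, and Bak1, a pro-apoptotic Bcl2 family protein, from 1.68 ± 0.28 to 83.8 ± 6.39 CPM. Hmga2, a chromatin protein of fetal cells, rose from 0.242 ± 0.119 to 14.0 ± 1.29 CPM. The lists that hold these 3 genes were mixed. Of 26 tested p53 response and apoptosis genes, Bak1 among them, 14 rose and 8 fell. Of 19 tested fetal and leukemia-associated genes, Pim1 and Hmga2 among them, 12 rose and 5 fell, or 8 and 9 with length offsets.

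Genes of the cell cycle, the respiratory chain, mitochondrial ribosomes and the proteasome were mostly lower, while those of glycolysis were mixed. Of 25 G2/M genes 17 fell and 5 rose (median -0.87, and -0.93 with offsets). Birc5, survivin of the mitotic spindle, was 354, 357 and 356 CPM in NHD13 and 57.9, 57.8 and 59.3 CPM in AML (log2 change -2.61, SE 0.05). Mki67, one of the longest in the list, changed by 0.99 without offsets and by -0.03 with them. Of 25 S phase genes 18 fell and 4 rose. Rrm2, the ribonucleotide reductase subunit, was 652.5, 652 and 651 CPM in NHD13 and 162, 175 and 171 CPM in AML. Of 23 tested glycolysis and hypoxia genes 12 were higher and 10 lower, with a median of 0.44 that becomes -0.29 with offsets. Hk2, a hexokinase, and Slc2a3, a glucose transporter, both rose by 1.76, and by 1.12 and 0.95 with offsets. In the list of nuclear-encoded respiratory chain genes 70 of 73 fell and 2 rose (median -2.30, and -1.78 with offsets). Of 76 mitochondrial ribosomal proteins 74 fell and none rose (median -1.96, and -1.73 with offsets), led by Mrps14, which fell from 346 ± 9.82 to 35.1 ± 0.313 CPM. Of 46 proteasome genes 44 fell and 1 rose (median -1.76, and -1.50 with offsets). Psmb2, a core subunit, fell from 835 ± 65.7 to 81.6 ± 3.14 CPM. The 1 that rose, Psme4, had 0.11 with offsets and did not pass (edgeR adjusted p = 0.358). The cytosolic ribosomal proteins did not share this: of 72 tested, whose reads may be shared with pseudogenes, 28 were higher and 19 lower, or 51 and 10 with length offsets, with a median of 0.11 that becomes -0.01 with upper-quartile factors. Of 55 replication-dependent histone genes, near-identical copies whose messages mostly lack a poly(A) tail, 47 fell and 4 rose, or 39 and 5 with offsets (median -1.96, and -1.13 with offsets).

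Chromatin regulators were mostly higher without length offsets, and their genes are long. Of 21 tested H3K36 writers, readers and erasers 19 rose and 2 fell, with a median of 1.54 that becomes 0.69 with offsets, under which 14 rose and 5 fell. Kdm4a, an H3K36 and H3K9 demethylase, rose by 3.65 (SE 0.14) and by 3.04 with offsets. Nsd3, a mono- and dimethyltransferase, rose by 2.60 and by 1.28 with offsets. Of 23 MLL and polycomb genes 17 rose and 4 fell (median 1.16), or 15 and 5 with offsets (median 0.44). Kmt2b, an H3K4 methyltransferase, was 6.43, 11.1 and 7.91 CPM in NHD13 and 210, 215 and 199 CPM in AML (log2 change 4.62, SE 0.17, and 3.62 with offsets), and Dot1l, the H3K79 methyltransferase, rose by 3.51 and by 2.57 with offsets. Of 16 DNA methylation genes 11 rose and 4 fell (median 0.85), but only 7 rose and 5 fell with offsets (median 0.12). The de novo methyltransferase Dnmt3b was 16.1, 15.2 and 19.6 CPM in NHD13 and 133, 132 and 127 CPM in AML (log2 change 2.94, SE 0.09, and 2.46 with offsets). Dnmt3a rose from 23.7 ± 4.09 to 164 ± 8.33 CPM, by 2.79 and by 1.46 with offsets.

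The genes that fell most went to 0 or near it. Slc25a21, a mitochondrial oxodicarboxylate carrier, was 35.9, 32.8 and 37.4 CPM in NHD13 and 27.1 ± 2.52 CPM in KO progenitors, and had no count in AML, at least 854-fold lower. Hnmt, which inactivates histamine, was 22.6, 24.6 and 20.7 CPM in NHD13 and 0 in AML, at least 545-fold lower. Vill, a villin-like actin-binding protein, had 58.2 ± 5.34 CPM in NHD13 and 2 counts over the AML libraries, a ratio of 2110 with a counting interval of 584 to 17400. Tcf19, a factor expressed late in G1, was 34.6, 34.2 and 37.0 CPM in NHD13, 5.82 ± 0.596 CPM in KO progenitors and 2 counts over the AML libraries, a ratio of 1280 with an interval of 353 to 10600. Alox5, the lipoxygenase that starts leukotriene synthesis, was 43.8, 35.5 and 49.6 CPM in NHD13, 7.61 ± 1.65 CPM in KO progenitors and 0.0676 ± 0.0428 CPM in AML, 576-fold lower. Cox6b2, a testis-type subunit of cytochrome c oxidase, was 103, 110 and 112 CPM in NHD13 and 0.905, 0.383 and 0.624 CPM in AML, 169-fold lower.

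Whole-genome bisulfite sequencing of 1 library per group gives the DNA methylation of these genes in the authors' tables of differential regions. The tables step from WT to NHD13, from NHD13 to KO and from KO to AML, and no table sets NHD13 against AML directly. A gene was counted when a region lay within 500 bases of either end of its span (RefSeq, GRCm38.p6), which could be placed for 90.6% of the genes. A region that gained methylation from KO to AML lay there for 99 of 225 genes (44.0%) that were at least 32-fold lower in AML than in NHD13, for 19.8% of genes 8-fold to 32-fold lower and for 6.86% of genes 2-fold to 8-fold lower. The share was 9.01% over all genes and 14.0% for genes at least 32-fold higher. A loss lay at 9.33% of the genes at least 32-fold lower, against 5.98% of all, although only 22.2% of the 106032 regions of that table were gains. From NHD13 to KO, 13.8% of the genes at least 32-fold lower had a gain, against 5.06% of all. From WT to NHD13, the step that ends in the group in which these genes were higher, 12.4% of them had a gain, against 6.24% of all and 12% of the genes at least 32-fold higher. In the 99 genes the gained region with most CpG sites had a median methylation of 24.6% in KO and 71.5% in AML. Only gained regions entered, so the direction of this change was fixed by the choice. The medians were 31.0% and 64.2% in the 49 genes at least 32-fold higher that had a gain. With 1 library a group there is no replicate check, and the coverage behind these means is unknown.

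Promoter windows show where such regions lie. The sequences below run from 250 bases before to 50 after a transcription start (RefSeq, GRCm38.p6), are written 5′ to 3′ on the gene's strand, and have in capitals the CG pairs that fall inside the region that changed from KO to AML. Tcf19 and Cox6b2 are shown as windows wholly inside a gained region, Alox5 as one partly inside, and S100a8 as one whose region lost methylation.
Tcf19, chr17:35516775-35517074, minus strand: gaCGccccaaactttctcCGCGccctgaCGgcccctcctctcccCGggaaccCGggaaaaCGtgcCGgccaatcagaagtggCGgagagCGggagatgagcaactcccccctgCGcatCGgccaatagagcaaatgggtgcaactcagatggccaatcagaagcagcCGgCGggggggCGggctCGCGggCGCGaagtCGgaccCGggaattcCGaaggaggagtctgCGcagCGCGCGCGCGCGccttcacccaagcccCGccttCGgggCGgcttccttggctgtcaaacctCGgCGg
Cox6b2, chr7:4753045-4753344, minus strand: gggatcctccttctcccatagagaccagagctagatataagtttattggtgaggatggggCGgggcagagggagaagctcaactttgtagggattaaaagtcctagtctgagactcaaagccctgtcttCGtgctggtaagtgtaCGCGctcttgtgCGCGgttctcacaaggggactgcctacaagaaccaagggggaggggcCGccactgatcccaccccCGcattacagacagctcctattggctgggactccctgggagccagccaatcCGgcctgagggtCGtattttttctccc
Alox5, chr6:116461129-116461428, minus strand: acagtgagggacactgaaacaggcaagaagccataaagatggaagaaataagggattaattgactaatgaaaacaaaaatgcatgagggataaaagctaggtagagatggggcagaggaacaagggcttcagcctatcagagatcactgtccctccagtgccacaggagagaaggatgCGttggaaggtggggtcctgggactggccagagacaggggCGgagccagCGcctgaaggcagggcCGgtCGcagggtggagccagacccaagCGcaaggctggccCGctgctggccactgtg
S100a8, chr3:90668821-90669120, plus strand: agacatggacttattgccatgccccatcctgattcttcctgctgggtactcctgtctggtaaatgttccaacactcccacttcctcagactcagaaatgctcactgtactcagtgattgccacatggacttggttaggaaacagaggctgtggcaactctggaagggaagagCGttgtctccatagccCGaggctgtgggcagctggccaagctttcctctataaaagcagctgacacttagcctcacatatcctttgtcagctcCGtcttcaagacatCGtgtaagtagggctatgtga
The window of Tcf19 holds 34 CG, all inside a region of 1358 bases that went from 16.1% in KO to 60.3% in AML. The median window of 300 bases in that table holds 7 CG (quartiles 3 and 20, 94.6% with at least 1, the pair reading the same on both strands), and 92.3% hold fewer than that of Tcf19. The window of Cox6b2 holds 10 CG inside a region that went from 29.9% in KO to 68.2% in AML, and part of it had already gone from 21.2% in NHD13 to 51.2% in KO, where its RNA was still 103 CPM. The 7 CG of Alox5 lie in a region that went from 45.1% to 95.6%, after 23.0% in NHD13 and 46.8% in KO in an overlapping region. At S100a8 a region of 28 CpG sites, 4 of them in the window, was at 25.5% in NHD13, 62.4% in KO and 18.2% in AML, so AML was below NHD13 in methylation and also below it in RNA.

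A gain of methylation was not limited to genes that fell. A promoter window of Zic4, which rose from 0 to 14.2 ± 1.35 CPM, lay in a region that went from 47.1% in KO to 88.8% in AML. At the Selp promoter a region of 2193 bases went from 85.2% in KO to 25.8% in AML. At Slc25a21 the region of 143 CpG sites at the start, chr12:57196227-57197487, went from 38.1% to 89.7%.

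**Figure D4:**
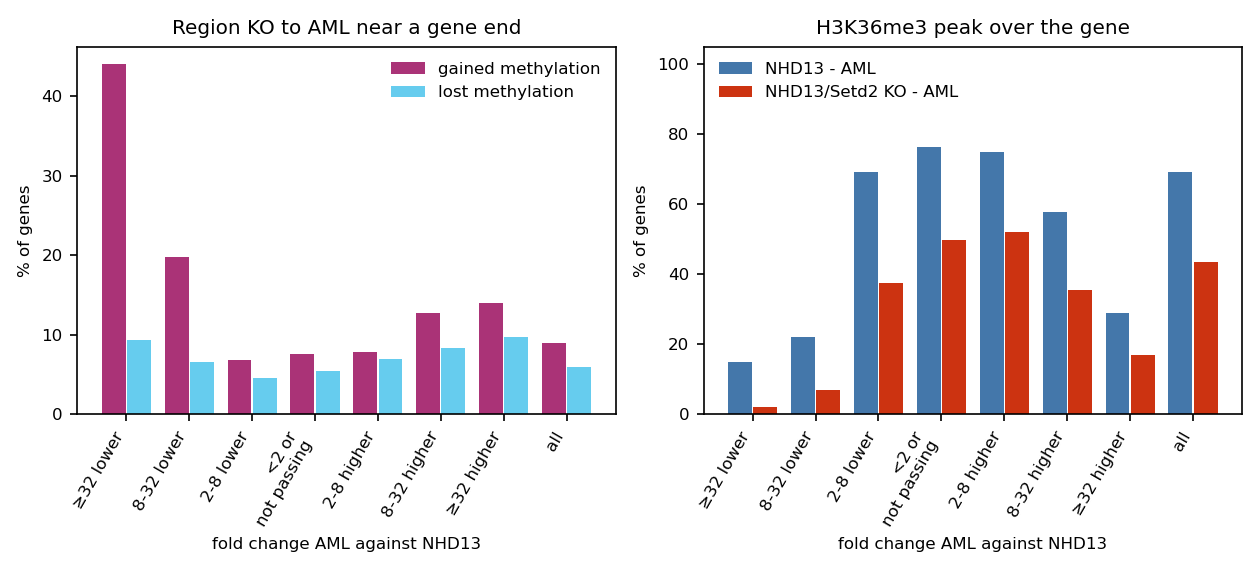
Share of genes (y axis, %) by fold change class of AML against NHD13 (x axis). Left, genes with a region that gained or lost methylation from KO to AML within 500 bases of a gene end; right, genes with an H3K36me3 peak over the span in the NHD13 - AML and NHD13/Setd2 KO - AML libraries. The gained share is 44.0% in genes at least 32-fold lower and 9.01% in all genes, and peaks are fewest at both ends of the fold scale.

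H3K36me3 peaks, called by the authors in 1 ChIP-seq library of NHD13 leukemic spleen and 1 of NHD13/Setd2 KO leukemic spleen, both of c-Kit+ cells, were set beside the same classes. In the Setd2 KO leukemia a peak lay over 2.22% of genes at least 32-fold lower in AML RNA, over 49.8% of genes that changed by under 2-fold or did not pass, and over 16.9% of genes at least 32-fold higher, against 43.6% of all. In the leukemia labelled NHD13 alone the shares were 15.1%, 76.4% and 28.9%, against 69.2% of all. The lists were called separately in the 2 libraries, so the difference between them moves with how much was called in each.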

How the data were processed

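RNA-seq, bisulfite sequencing and H3K36me3 ChIP-seq were made from FACS-sorted cells. The deposited gene counts come, per the submitters' processing notes, from tools that include HISAT2 2.0.5 and HTSeq 0.9.1 on mm10. Whether counting used strand has no statement in the labels or notes. FPKM in the deposited table equal the counts per length and column total. Methylation is the mean fraction per region in the deposited region tables, whose score columns are the side 1 minus side 2 difference and a summed statistic; printed percentages are 100 times the fraction. Peaks were called with MACS2 2.1.1.20160309 per the submitters' processing notes; the deposited score, fold enrichment ratio and −log10 p and q columns were not tested.

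From the counts, edgeR 4.0.16 (R 4.3.3) fitted 1 mean per group over 12 libraries (filterByExpr, TMM, robust quasi-likelihood, 8 residual degrees of freedom before moderation), with Benjamini-Hochberg adjustment over all 16233 genes tested and a threshold of 0.05. Genes on X or Y (492) were then left out; 1481 genes without a chromosome in the gene table were kept. CPM are TMM-scaled. Gene-length offsets remove each library's lowess trend (span 0.3) on log2 of the deposited length. Folds against a group with no count use a floor of 3 counts over its 3 libraries; with 1 to 3 counts the ratio has an exact 95% interval, which covers counting error only.

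Always named were Setd2, S100a8, S100a9 and Kit; then the 12 genes that rose most and the 12 that fell most among genes past the threshold that have an official symbol, do not overlap between groups and reach 10 CPM in the group with more; then, per list, up to 4 called members in the leading direction and 2 in the other. Other genes named, such as Batf3, Xcr1, Hoxb6, Hoxb7, Hbb-bs, Spi1 and Cebpe, are list members or cell type markers chosen after their values were seen. The members and the 39 gene lists were chosen with earlier results of these data known, so no set test was run and list counts are descriptive. Alternatives were other scalings, filters, DESeq2 1.42.0, limma 3.58.1 on log2(FPKM + 1) and log2(FPKM + 0.1), leaving out each library, the 6 libraries alone and a replicate block.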

Additional observations from a re-analysis of the deposited data

How the results depend on the processing

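The number of genes at least 2-fold lower was 2672 with library totals, 1603 in log2(FPKM + 1) and 2435 in log2(FPKM + 0.1), against 4235. At 32-fold it was 188, 12 and 45, against 255, and 367 without a filter; the higher genes at that fold numbered 628, 16 and 148, against 431, and 762 without a filter. The length trend (rho 0.31) was 0.1 without a filter on low counts, 0.01 with length offsets and 0.01 with length offsets and the replicate block. DESeq2 called 6738 genes higher and 6155 lower. Leaving out 1 library gave 6730 to 6984 higher and 6005 to 6043 lower genes, 5203 to 5381 and 4147 to 4250 at 2-fold, and rho of 0.27 to 0.3. Same-numbered libraries did not deviate together (r between -0.039 and -0.008), so the numbers do not pair them; a replicate block gave 6769 higher and 6096 lower genes. The share of genes at least 32-fold lower with a methylation gain was 51.6% with classes from length-offset fold changes, against 44.0%; the alternatives for that share were chosen after seeing the data.

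List medians changed sign as follows. Late neutrophil: 0.44 with library totals and both FPKM fits, 0.01 unfiltered. Immediate early: 0.39 with library totals, 0.34 and 0.39 in the FPKM fits, 0.21 with offsets and 0.22 with offsets and the block. Mitochondrially encoded: 0.29 with totals, 0.25 in both FPKM fits, 0.53 with offsets. Splicing factors: 0.41 with totals and both FPKM fits. Megakaryocyte: -0.07 unfiltered. Cytosolic ribosomal proteins: -0.01 with upper-quartile factors. With offsets, the calprotectin receptor and TLR4 list was -0.4, fetal and leukemia-associated genes -0.17, glycolysis -0.29 and nuclear retained RNA -0.48, with the same values under the block.

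Of 221 named genes 205 kept direction and call in every setting. With totals and the FPKM fits (+ 1, + 0.1), Hoxa10 was 0.14, 0.1 and 0.13, Mbd2 0.03, 0.04 and 0.04, Eed 0.06, 0.05 and 0.06, Bst2 0.04, 0.05 and 0.05, and Cst3 0.43 in each. With offsets, Bst2 was 0.31, Cst3 0.64 (0.65 with the block), Bex6 0.03 (0.04), Mki67 -0.03 (-0.02), Nfkb1 -0.4, Malat1 -0.03 and Neat1 -0.95. The cause of these changes was not tested.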
